A study of Mus musculus with 8 samples.

Results

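The genes described here are 42 genes of the cell cycle and of DNA replication, taken by name from a list and located in the count table through their Ensembl identifiers. All 42 were found among the 26930 identifiers of the table, and all 42 had enough counts to be tested. They were split by their place in the list into 19 mitotic genes, from Mki67 to Birc5, and 23 G1/S replication genes, from Ccne1 to Fen1. The rule uses no measured value, but the list was chosen with earlier results of these data known.

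RNA was measured in MDSCs (myeloid-derived suppressor cells, a population of immature myeloid cells that dampens T cell responses), grown from the bone marrow of C57BL/6 mice with GM-CSF and IL-6 at 40 ng/ml each. Medium conditioned by TRAMP-C1 cells, a mouse prostate tumour line, was given to all cultures on day 4, and the labels call the cells senescent-like. The untreated group holds 4 libraries, and the other group holds 4 libraries of the same cells given Romidepsin, a histone deacetylase inhibitor, at 0.5 µM for 6 h. The labels name no separate animals or cultures, and the p-values therefore rest on a spread between libraries that may be technical.

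A cell enters S phase when cyclins and their kinases, cyclin E with CDK2 among them, release the E2F factors from the retinoblastoma proteins. The genes for origin licensing, nucleotide supply and the replication fork are then transcribed. Mitotic genes are transcribed later, in G2, when the B-MYB and FOXM1 factors join the MuvB core on promoters that carry the cell cycle genes homology region (CHR), commonly beside CCAAT boxes. In resting and senescent cells the retinoblastoma family and the DREAM complex keep both gene classes low. Inhibitors of histone deacetylases are known to arrest cultured cells in the cycle.

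Total counts per library ranged from 12996892 to 23176949. The share of mitochondrial counts was 0.934% to 1.89% in untreated and 1.59% to 3.05% in treated libraries. Treated replicate 3 stood apart: across genes its log2 level correlated at a mean of 0.910 with the other treated libraries and 0.934 with the untreated ones, so counts that lead a result are also given without it. Over 8 markers of the labelled cells the summed level was 37960 to 44780 CPM in untreated and 13520 to 31420 CPM in treated libraries. Most of it was Lyz2, with a mean of 32300 CPM in untreated and 19350 CPM in treated libraries. Ly6g ranged from 1.38 CPM in treated replicate 1 to 19.6 CPM in untreated replicate 2. Of the 8 markers 1, Csf3r, passed the test, lower in treated cells, and 4 did so in a fit that pairs libraries by number.

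The promoters of the members come first, since their letters differ between the mitotic and the G1/S genes. RefSeq promoters on GRCm38.p6, running from 250 bases before to 50 bases after the start of transcription, were at hand for 34 of the 42 members, 15 mitotic and 19 G1/S. The members not matched were Ccna2, Aurkb, Tpx2, Kif20a, Ccne2, Mcm4, Gins2 and Pole. CHR letters were TTTGAA or TTCGAA, E2F letters were TTCCCGC or TTGGCGC or TTCGCGC or TTGCCGC, and the CCAAT box was CCAAT, each searched on both strands. TTGGCGC can overlap the reverse complements of TTCGCGC and of CCAAT.

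Shown are the bases before the start that lie in no annotated exon, read 5′ to 3′ on the gene's strand, with every match of the 3 motifs in that stretch in capitals. Mki67, Ccnb2 and Cdc20 are mitotic genes that fell, Cdk1 is a mitotic gene with all 3 motifs whose level did not pass the test, Rrm2 is a G1/S gene that fell, and Mcm6 is a licensing gene with 2 runs of E2F letters. The windows are chr7:135716380-135716629 (Mki67), chr9:70421555-70421804 (Ccnb2), chr4:118437353-118437593 (Cdc20), chr10:69352939-69353162 (Cdk1), chr12:24708004-24708240 (Rrm2) and chr1:128359706-128359955 (Mcm6). Rrm2 lies on the plus strand and the others on the minus strand.
Mki67: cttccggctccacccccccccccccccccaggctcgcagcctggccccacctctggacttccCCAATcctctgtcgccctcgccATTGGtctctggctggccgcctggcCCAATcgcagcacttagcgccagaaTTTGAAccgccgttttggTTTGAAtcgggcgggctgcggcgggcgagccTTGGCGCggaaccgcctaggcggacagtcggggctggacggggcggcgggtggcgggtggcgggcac
Ccnb2: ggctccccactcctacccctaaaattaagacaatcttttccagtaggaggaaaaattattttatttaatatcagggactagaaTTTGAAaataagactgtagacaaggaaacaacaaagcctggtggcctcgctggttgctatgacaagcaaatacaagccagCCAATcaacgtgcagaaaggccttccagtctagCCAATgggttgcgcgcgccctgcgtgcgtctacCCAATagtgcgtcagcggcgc
Cdc20: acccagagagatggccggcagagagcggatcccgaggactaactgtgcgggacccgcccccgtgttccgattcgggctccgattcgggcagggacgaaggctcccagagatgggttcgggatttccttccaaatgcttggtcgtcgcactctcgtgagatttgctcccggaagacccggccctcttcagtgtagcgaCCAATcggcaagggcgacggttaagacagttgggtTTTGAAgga
Cdk1: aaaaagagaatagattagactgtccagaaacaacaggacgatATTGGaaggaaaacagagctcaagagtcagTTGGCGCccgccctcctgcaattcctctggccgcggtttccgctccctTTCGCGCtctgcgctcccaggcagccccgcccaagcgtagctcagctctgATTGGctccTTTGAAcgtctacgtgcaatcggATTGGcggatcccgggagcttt
Rrm2: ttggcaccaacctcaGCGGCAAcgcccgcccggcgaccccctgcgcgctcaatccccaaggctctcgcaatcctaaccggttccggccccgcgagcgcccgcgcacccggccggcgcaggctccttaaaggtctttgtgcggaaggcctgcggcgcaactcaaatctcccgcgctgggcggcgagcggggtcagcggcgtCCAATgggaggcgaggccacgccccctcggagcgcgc
Mcm6: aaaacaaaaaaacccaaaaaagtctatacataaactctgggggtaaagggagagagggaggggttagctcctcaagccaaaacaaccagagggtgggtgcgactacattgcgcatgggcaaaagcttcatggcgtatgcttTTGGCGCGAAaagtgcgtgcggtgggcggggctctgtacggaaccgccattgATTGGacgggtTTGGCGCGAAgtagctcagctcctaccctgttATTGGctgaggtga

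In the Mki67 promoter, TTTGAA occurs with its first base 116 and 98 bases before the start, CCAAT lies upstream of both, and TTGGCGC lies at 67 bases. Ccnb2 carries 3 CCAAT boxes, at 87, 54 and 21 bases before the start, and TTTGAA at 167 bases. A second TTTGAA of Ccnb2, at position 5 after the start, lies outside the stretch shown. In Cdc20, CCAAT at 53 bases is followed by TTTGAA at 18 bases. Cdk1 holds TTTGAA at 71 bases between reverse-strand CCAAT boxes at 80 and 48 bases, with E2F letters farther out at 178 and 130 bases, and a second TTTGAA at 15 bases lies in an annotated exon and is not shown. In Rrm2 the single E2F match is on the reverse strand at 235 bases, far from the start, and no CHR letters were found in this window. The runs of capitals in Mcm6 at 109 and 46 bases are E2F letters on both strands that overlap.

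CHR letters were found in 12 of 15 mitotic promoters (80%, exact 95% binomial interval 51.9% to 95.7%) and in 4 of 19 G1/S promoters (21.1%, 6.05% to 45.6%). They were held by 16.6% of the 9746 tested genes that have a RefSeq promoter and by 21.7% of all 27025 genes that have one. All shares count genes. A gene with several promoter windows, such as Mcm7, Fen1 or Lig1, counts where any of them holds a match. E2F letters were found in 3 of 15 mitotic promoters (20%, 4.33% to 48.1%) and in 12 of 19 G1/S promoters (63.2%, 38.4% to 83.7%), against 19.4% of tested genes and 10.9% of all genes with a promoter. CCAAT was present in 14 of 15 mitotic promoters (93.3%), 11 of 19 G1/S promoters (57.9%), 43.2% of tested genes and 41.1% of all genes with a promoter. When only the 150 bases before the start were searched, CHR letters were in 33.3% of mitotic promoters (11.8% to 61.6%). They were in 10.5% of G1/S promoters (1.30% to 33.1%) and 7.74% of tested genes. E2F letters were then in 42.1% of G1/S promoters (20.3% to 66.5%), 20% of mitotic ones (4.33% to 48.1%) and 11.6% of tested genes. In this window the intervals of the classes overlap for both motifs, and for E2F letters they do so in the longer window too. The shorter window also leaves out the bases after the start, where every mitotic gene that lost its CHR letters had a match. Mki67, Cdk1 and Mcm7 held both CHR and E2F letters in the same window, and Fen1 held them in separate windows. These shares describe letters in a window and not binding, which was not measured.

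**Figure D1:**
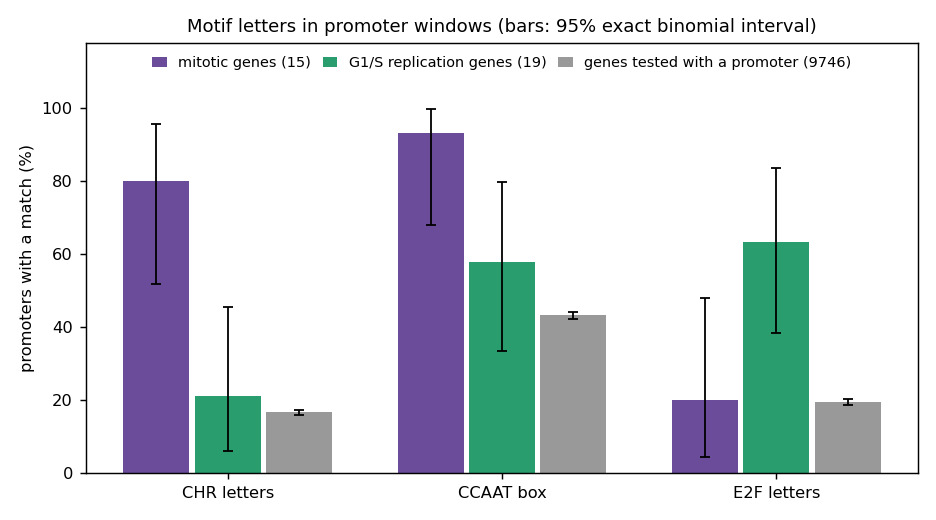
Percent of promoters (y axis) with at least 1 match of the CHR, CCAAT or E2F letters (x axis) in 15 mitotic genes, 19 G1/S replication genes and 9746 tested genes, with exact 95% binomial intervals as error bars. CHR letters were in 80% of mitotic promoters and E2F letters in 63.2% of G1/S promoters, and in the other class these letters were about as frequent as in tested genes. The window ran from 250 bases before to 50 bases after the start, and a gene counts where any of its windows holds a match. With only the 150 bases before the start, the intervals of the classes overlap for CHR and E2F letters.

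After Romidepsin 4 of 19 mitotic genes fell and none rose, while 2 of 23 G1/S genes rose and 2 fell, but with scaling to housekeeping genes none of the mitotic genes fell and 5 rose, and 11 G1/S genes rose and 1 fell. The mitotic genes that fell were Mki67, Ccna2, Ccnb2 and Cdc20. The G1/S genes that rose were Ccne1 and Pcna, and those that fell were Rrm2 and Tk1, which supply deoxynucleotides. The other 34 members did not pass. Calls here are adjusted p under 0.05 in edgeR's quasi-likelihood test with Benjamini-Hochberg adjustment over 12852 genes.

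Read against the background, the members were called in a small share: 8 of 42, beside 36.5% of all tested genes. Of all tested genes 20.3% rose and 16.2% fell, so that the count of mitotic genes that fell lies near the background share and no mitotic gene was among the larger share that rose. At an unadjusted p under 0.05 edgeR gave 1 mitotic gene higher and 6 lower, DESeq2 called 1 higher and 6 lower after adjustment, and limma-voom 1 higher and 3 lower. These counts, and those of the same tests given by role below, stand without the share over all genes under that test. They are therefore not read as an excess. With housekeeping scaling 49.7% of all genes were called, 44.9% rising and 4.86% falling, and with library size alone 40.9%, 30.2% rising and 10.6% falling. Library size alone gave 1 mitotic gene higher and 2 lower, and 4 G1/S genes higher and 2 lower.

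Without treated replicate 3, 3 mitotic genes fell (Mki67, Ccna2 and Ccnb2) and none rose, and 5 G1/S genes rose (Pcna, Ccne1, Fen1, Pola1 and Pole) and 2 fell, beside 24.5% of all genes that rose and 23.4% that fell. With the libraries paired by replicate number, 5 mitotic genes fell, Plk1 being added, and Kif23 rose. In the same paired fit 3 G1/S genes rose, Pole being added, and 2 fell, beside 21.2% of all genes that rose and 20.8% that fell.

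The median log2 fold change, treated over untreated, was −0.21 over the mitotic genes (0.08 with library size alone and 0.54 with housekeeping scaling), 0.25 over the G1/S genes and 0.01 over all tested genes (0.31 and 0.70). The G1/S median was thus 0.46 above the mitotic median, and under the 20 other settings it was 0.44 to 0.62 above it. Against all genes the mitotic median was lower by 0.22, and over those settings the difference ran from −0.43 to 0.05. It was above 0 only without untreated replicate 1, where the mitotic median was 0.07. The G1/S median lay 0.24 above that of all genes, with a range of 0.08 to 0.53. These medians describe the lists and carry no test.

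**Figure D2:**
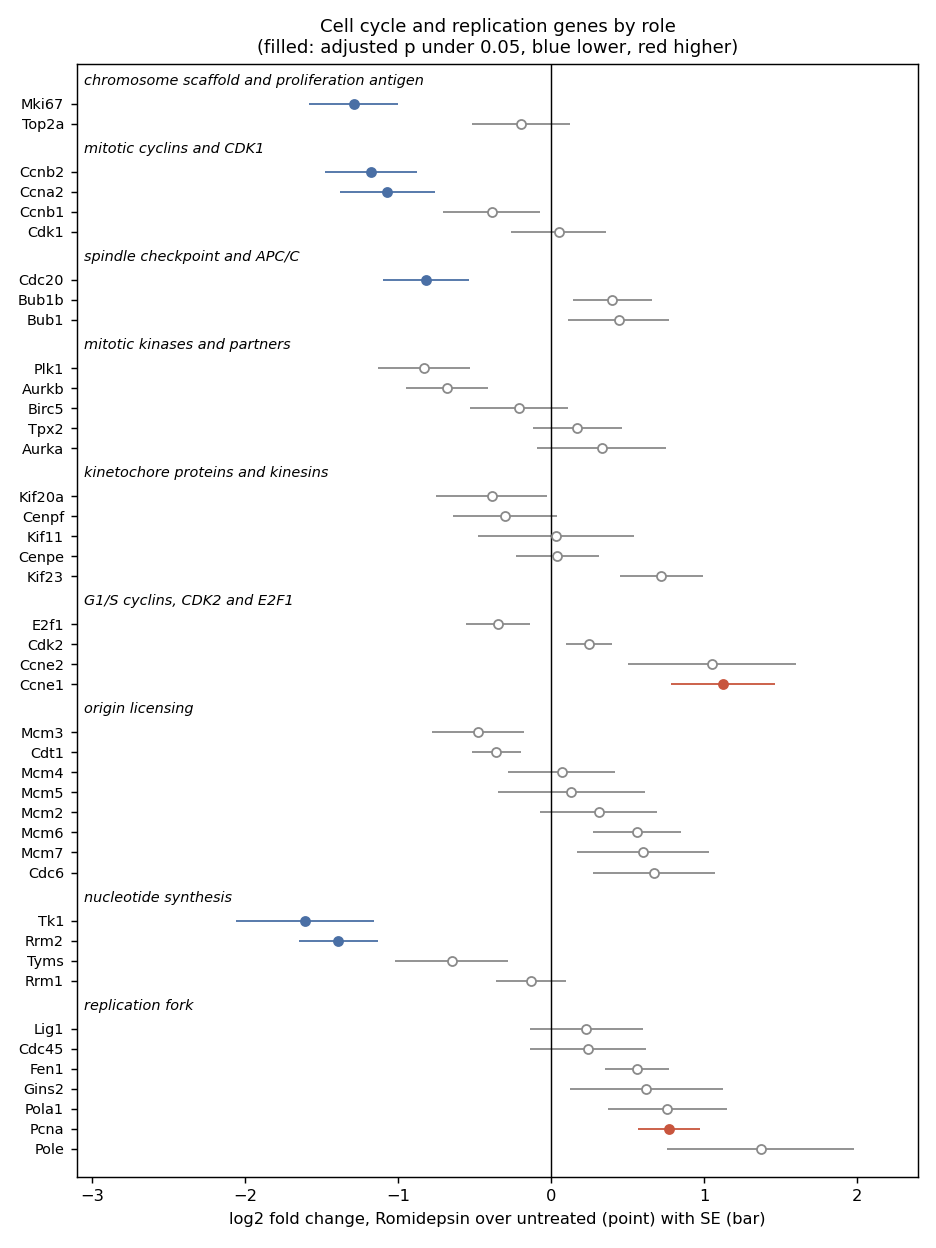
Log2 fold change of treated over untreated cells (x axis) for the 42 members, grouped by role (y axis), with the standard error as bars and filled points where the adjusted p was under 0.05. Blue points, lower in treated cells, are Mki67, Ccnb2, Ccna2, Cdc20, Tk1 and Rrm2, and red points, higher, are Ccne1 and Pcna; with housekeeping scaling, of these only Rrm2 stayed lower and Ccne1 and Pcna higher.

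Mki67 encodes Ki-67, the nuclear protein that coats mitotic chromosomes and serves as the usual stain for cycling cells. Untreated replicates 1 to 4 held 225, 166, 106 and 240 CPM, and treated replicates 1 to 4 held 56.6, 61.3, 92.5 and 91.3 CPM (TMM-scaled counts relative to library size, as everywhere below). Every treated library lay below every untreated one, though untreated replicate 3 and treated replicates 3 and 4 came close. The level fell from 184 ± 61.3 to 75.4 ± 19.1 CPM (SD, n = 4 per group), a log2 fold change of −1.29 ± 0.29 (SE, edgeR adjusted p = 0.0101). Over the other settings the adjusted p ran from 1.71e-04 to 0.122, and the call was lost with housekeeping scaling, paired or not. The gene lies on chromosome 7, 135689784 to 135716361 (GRCm38, as are all positions below).

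Top2a, the DNA topoisomerase that untangles sister chromatids and that is often read together with Mki67, did not pass the test. It held 144, 110, 59.7 and 127 CPM in untreated and 107, 139, 58.4 and 81.1 CPM in treated libraries, a log2 fold change of −0.20 ± 0.32 (adjusted p = 0.645). The groups overlapped almost entirely. A snoRNA gene is annotated inside its exons on the same strand.

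Among the mitotic cyclins and their kinase, 2 of 4 genes fell. Ccnb2 encodes cyclin B2, a partner of CDK1 at mitotic entry, and lies on chromosome 9, 70407692 to 70421547. It held 41.4, 25.4, 18.5 and 16.7 CPM in untreated and 10.2, 9.59, 13.2 and 11.9 CPM in treated libraries. The groups did not overlap, and the treated libraries were close together, while untreated replicate 1 was far above the other untreated ones. The log2 fold change was −1.18 ± 0.30 (edgeR adjusted p = 0.0156), and the adjusted p ran from 0.00105 to 0.231 over the other settings, housekeeping scaling ending the call.

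Ccna2 encodes cyclin A2, which acts in S phase and G2. Its level was 51.2, 27.8, 19.2 and 31.0 CPM in untreated and 15.4, 21.2, 11.7 and 13.3 CPM in treated libraries. Untreated replicate 3 lay below treated replicate 2, the only overlap, and within each replicate number the treated library was lower. The log2 fold change was −1.07 ± 0.31 (edgeR adjusted p = 0.0266). The call was lost with library size alone (0.111), with housekeeping scaling (0.481) and without untreated replicate 1 (0.0597), treated replicate 1 (0.061) or treated replicate 4 (0.0725). Ccna2 (chromosome 3, 36564865 to 36572150) shares 510 exonic bases with Exosc9 on the opposite strand, and the strand setting of the counting is not given in the sources used here.

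Ccnb1, encoding cyclin B1, and Cdk1, the mitotic kinase itself, did not pass. Their log2 fold changes were −0.39 ± 0.32 and 0.05 ± 0.31. Cdk1 had a mean of 32.0 ± 14.2 CPM in untreated and 33.2 ± 8.26 CPM in treated libraries.

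Of the 3 genes of the spindle checkpoint and its target 1 fell, Cdc20. It encodes the activator of the anaphase-promoting complex that the checkpoint holds in check, and lies on chromosome 4, 118432901 to 118437352. It held 28.1, 18.9, 12.6 and 15.3 CPM in untreated and 12.1, 11.6, 7.88 and 10.9 CPM in treated libraries. The groups did not overlap, but untreated replicate 3 and treated replicate 1 nearly met. The log2 fold change was −0.82 ± 0.28 (edgeR adjusted p = 0.0443), just inside the threshold. The call was lost under 11 of 20 settings, among them library size alone (0.219), housekeeping scaling (0.868) and the removal of untreated replicate 1 or 2 or of any treated replicate, the highest of those 6 values being 0.11.

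Bub1b, encoding the checkpoint kinase BUBR1, held 48.2, 27.7, 23.5 and 39.6 CPM in untreated and 52.0, 54.2, 31.4 and 45.7 CPM in treated libraries. It was higher in the treated library within each of the 4 replicate numbers, yet the groups overlapped, and its log2 fold change of 0.40 ± 0.26 did not pass (adjusted p = 0.249). Bub1, a second checkpoint kinase, was likewise higher within all 4 numbers, with 0.44 ± 0.33 (adjusted p = 0.309). With housekeeping scaling both passed as higher.

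None of the 5 genes of mitotic kinases and their partners passed. At an unadjusted p under 0.05 edgeR gave 2 lower, DESeq2 called the same number lower after adjustment and limma-voom none. Plk1, the Polo kinase of mitotic entry and spindle assembly, was nearest: −0.83 ± 0.30 (edgeR adjusted p = 0.0559), and 0.0202 in the paired fit, where it passed as lower. Aurkb, the kinase of the chromosomal passenger complex, had −0.68 ± 0.27 (adjusted p = 0.0792). Tpx2, which activates Aurora A on the spindle and had the highest CPM of the 5 without regard to length, held 55.2, 32.7, 27.3 and 33.2 CPM in untreated and 51.7, 54.5, 26.1 and 34.0 CPM in treated libraries, with no separation (log2 fold change 0.17 ± 0.29). Aurka and Birc5 (survivin) had log2 fold changes of 0.33 ± 0.42 and −0.21 ± 0.32.

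Of the 5 kinetochore and kinesin genes none passed either. At an unadjusted p under 0.05 edgeR gave 1 higher, and DESeq2 and limma-voom each called 1 higher after adjustment. That gene was Kif23, the kinesin of the central spindle, with 36.5, 23.2, 14.2 and 19.4 CPM in untreated and 34.3, 38.9, 36.0 and 44.5 CPM in treated libraries. Untreated replicate 1 overlapped the treated libraries and the other 3 untreated ones lay below them all. The log2 fold change was 0.72 ± 0.27 (edgeR adjusted p = 0.0618), and 0.0423 in the paired fit. Cenpe, the kinetochore motor, held 43.5, 29.7, 23.01 and 31.3 CPM in untreated and 33.7, 43.4, 19.1 and 34.9 CPM in treated libraries, which overlapped fully. Cenpf, Kif11 and Kif20a had log2 fold changes of −0.30 ± 0.34, 0.03 ± 0.51 and −0.39 ± 0.36.

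Turning to the G1/S genes, Ccne1 encodes cyclin E1, the CDK2 partner that drives S phase entry, and lies on chromosome 7, 38097984 to 38107534. It held 21.2, 12.6, 8.14 and 7.35 CPM in untreated and 30.7, 30.2, 19.3 and 27.2 CPM in treated libraries. Only untreated replicate 1 and treated replicate 3 crossed, and within each replicate number the treated library was higher. The level rose from 12.3 ± 6.35 to 26.8 ± 5.27 CPM, a log2 fold change of 1.12 ± 0.34 (edgeR adjusted p = 0.0309). The call stood under every scaling and both other tools, but was lost without untreated replicate 2, 3 or 4 or treated replicate 1, 2 or 4, with adjusted p up to 0.0828.

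Ccne2, the cyclin E2 gene, had 1.05 ± 0.55 and did not pass (adjusted p = 0.158). It was the lowest member per length, at 1.11 CPM per kb in untreated cells, with 14 counts in the thinnest library. Cdk2 held 69.1, 50.1, 49.97 and 55.6 CPM in untreated and 66.8, 70.0, 64.8 and 65.0 CPM in treated libraries, a log2 fold change of 0.25 ± 0.15 (adjusted p = 0.205). E2f1 had −0.35 ± 0.21 (adjusted p = 0.208) and was lower in the treated library within all 4 numbers.

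None of the 8 origin licensing genes passed, and at an unadjusted p under 0.05 edgeR gave none, as did DESeq2 and limma-voom after adjustment. Their median was 0.22, and with housekeeping scaling 3 of them rose. Mcm3, a subunit of the MCM helicase and the most abundant of the group, held 116, 69.1, 43.7 and 46.9 CPM in untreated and 44.2, 55.1, 41.6 and 57.5 CPM in treated libraries, which overlapped (log2 fold change −0.48 ± 0.30). Mcm6 and Mcm7, subunits of the same 6-part ring, had 0.56 ± 0.29 and 0.60 ± 0.43. Cdc6, which loads the helicase, had 0.67 ± 0.40, and Cdt1, its loading partner, −0.36 ± 0.16 (adjusted p = 0.107). Mcm2, Mcm4 and Mcm5 lay between 0.07 and 0.31. Mcm7 overlaps Cops6 and Ap4m1 on the opposite strand and hosts Mir25 and Mir93.

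All 4 nucleotide synthesis genes had negative log2 fold changes, with a median of −1.02, and 2 of them, Rrm2 and Tk1, fell, while with housekeeping scaling 1 fell, 2 had positive values and the median was −0.27. Rrm2 encodes the small subunit of ribonucleotide reductase, the enzyme that makes deoxynucleotides, and lies on chromosome 12, 24708241 to 24714146. It held 46.5, 31.6, 20.2 and 26.01 CPM in untreated and 10.8, 11.2, 13.7 and 11.7 CPM in treated libraries. The treated libraries lay tightly together below all untreated ones. The level fell from 31.1 ± 11.3 to 11.8 ± 1.28 CPM, a log2 fold change of −1.39 ± 0.26 (edgeR adjusted p = 0.00506), and of 20 other settings only housekeeping scaling with pairing ended the call (0.0721).

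Rrm1, the large subunit of the same enzyme, held 84.3, 56.1, 48.2 and 62.0 CPM in untreated and 61.2, 74.4, 40.2 and 53.1 CPM in treated libraries. These overlapped, and the log2 fold change was −0.13 ± 0.23 (adjusted p = 0.675).

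Tk1 encodes thymidine kinase 1, the salvage enzyme whose level follows S phase, and lies on chromosome 11, 117815526 to 117826092. It held 20.7, 16.3, 7.15 and 5.08 CPM in untreated and 4.07, 4.64, 4.50 and 2.85 CPM in treated libraries. Untreated replicates 1 and 2 were high and replicates 3 and 4 lay only slightly above the treated range. The log2 fold change was −1.61 ± 0.45 (edgeR adjusted p = 0.0224), and the call was lost without untreated replicate 1 or 2 or treated replicate 1 or 4 (up to 0.064), with limma-voom (0.0617) and with housekeeping scaling (0.12). Its exons share 83 bases with Afmid on the opposite strand. Tyms, thymidylate synthase, had −0.65 ± 0.37 (adjusted p = 0.189) and was lower in the treated library within all 4 numbers.

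All 7 replication fork genes had positive log2 fold changes under each scaling tried (6 of 7 without treated replicate 2), their median was 0.62, and 1 of them rose. Pcna encodes the sliding clamp that holds polymerases on DNA and also serves repair, and lies on chromosome 2, 132249162 to 132253314. It held 156, 119, 131 and 119 CPM in untreated and 204, 230, 173 and 286 CPM in treated libraries. The groups did not overlap, and treated replicate 3 was the lowest of the treated. The level rose from 131 ± 17.3 to 223 ± 47.7 CPM, a log2 fold change of 0.77 ± 0.20 (edgeR adjusted p = 0.0162), and the call stood under all 20 other settings, with adjusted p from 0.00171 to 0.0489.

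Pole, the catalytic subunit of the leading-strand polymerase, had the largest positive value among the members, 1.37 ± 0.61 (adjusted p = 0.106). It held 13.3, 7.93, 3.70 and 8.46 CPM in untreated and 26.3, 43.8, 5.69 and 10.5 CPM in treated libraries. Treated replicates 1 and 2 were far above the rest, and treated replicates 3 and 4 lay within the untreated range. It passed under 5 of 20 other settings, among them the paired fit (0.0446) and the removal of treated replicate 3 (0.0256). With treated replicate 2 left out the value was 0.76 (adjusted p = 0.321), below that of Ccne1. Fen1, the flap endonuclease of Okazaki fragments, had 0.56 ± 0.21 (adjusted p = 0.0615, and 0.00865 without treated replicate 3), and it shares 1909 exonic bases with the antisense gene Gm10143. Pola1, Gins2, Cdc45 and Lig1 ran from 0.23 to 0.76. Gins2 shares 2758 exonic bases with Gse1 on the opposite strand and Kif20a 1271 with Cdc23, and shorter overlaps of this kind are annotated for Cdc20, Plk1, Ccne2, Cdk2, Cdc45, Pole and Lig1.

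**Figure D3:**
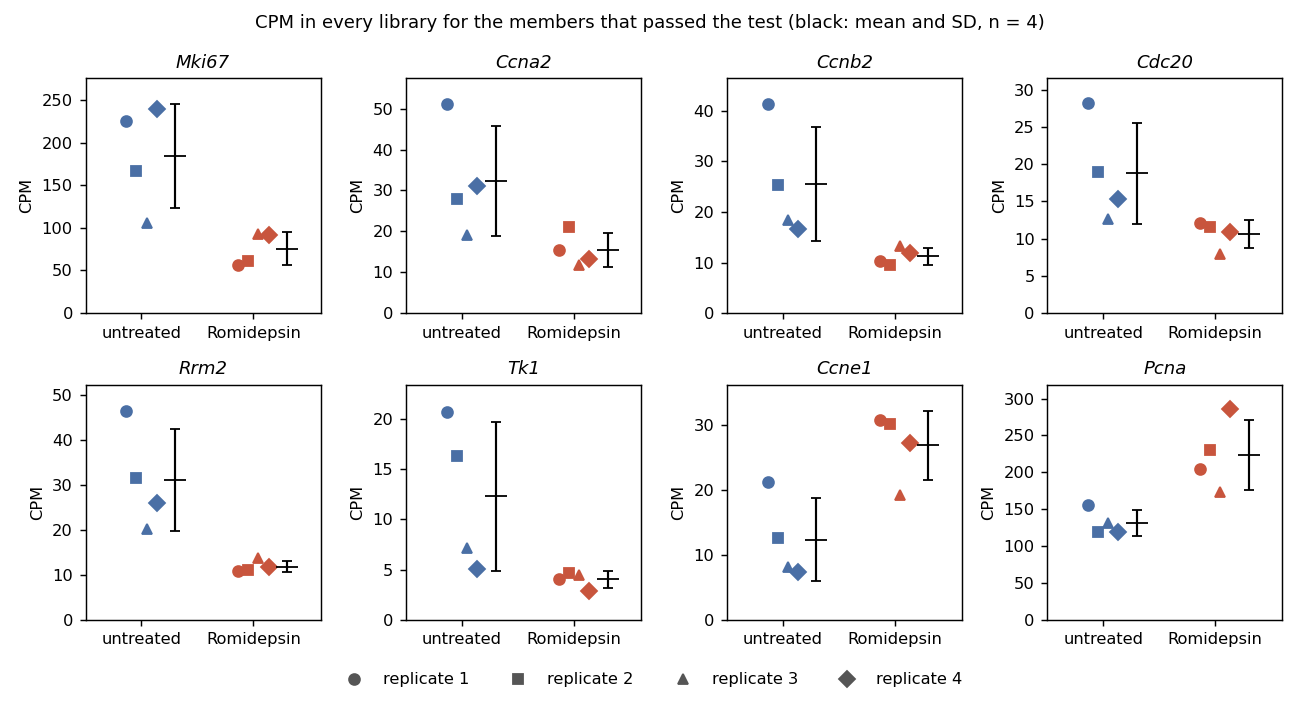
CPM (y axis, from 0) of the 8 members that passed the test in each of 4 untreated and 4 treated libraries (x axis), with the marker shape giving the replicate number and black bars the mean and SD. Of these, Mki67, Ccnb2, Cdc20, Rrm2, Tk1 and Pcna show no overlap between groups, Ccna2 and Ccne1 do, and untreated replicate 1 is the highest untreated library for all but Mki67.

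Groups that did not overlap were seen for 3 mitotic genes (Mki67, Ccnb2, Cdc20), all lower in treated cells, and for 3 G1/S genes, Pcna higher and Rrm2 and Tk1 lower. Of all tested genes, 18.7% had every treated library above every untreated one and 16.5% every treated library below. The members' shares lie at or under these.

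The members varied together between libraries of the same group. Untreated replicate 1 was the highest untreated library for 40 of the 42 members, and untreated replicate 3 the lowest for 31. Treated replicate 2 was the highest treated library for 27 members and treated replicate 3 the lowest for 33. Over the mitotic genes the median SD of log2 CPM was 0.55 in untreated and 0.37 in treated libraries, and over the G1/S genes 0.53 and 0.42, beside 0.31 and 0.34 over all tested genes.

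Setting each gene against its own untreated mean, the median over mitotic genes was 0.69, −0.07, −0.54 and −0.11 in untreated replicates 1 to 4, and 0.02, 0.20, −0.84 and −0.32 in treated replicates 1 to 4 (log2). The same median over G1/S genes was 0.71, 0.03, −0.47 and −0.19 in untreated and 0.63, 0.82, −0.54 and 0.22 in treated libraries. In untreated libraries the classes went up and down together. In each treated library the mitotic median lay under the G1/S median, by 0.61, 0.62, 0.30 and 0.54 in replicates 1 to 4.

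The untreated differences between the medians were −0.02, −0.10, −0.07 and 0.08. Centring each gene on its untreated mean holds their average near 0, but not the value of each library. Such a difference within a library does not change with the scaling between libraries. The summed CPM of the mitotic genes divided by that of the G1/S genes was 0.822, 0.837, 0.678 and 1.03 in untreated and 0.534, 0.507, 0.620 and 0.528 in treated libraries. The groups of this ratio did not overlap, and replicates 3 of both groups lay nearest each other. Abundant genes weigh most in such sums. Mki67 (184 CPM in untreated, 75.4 in treated) and Pcna (131 and 223 CPM), both called, had the highest untreated mean of their class. In replicate 3 the mitotic and G1/S sums were 429 and 632 CPM in the untreated and 417 and 673 CPM in the treated library. Mki67 and Pcna gave 106 and 131 CPM of these in the untreated library, and 92.5 and 173 CPM in the treated one. With both genes taken out, treated replicate 3 no longer lies below untreated replicate 3, and the groups overlap. The separation of this ratio is therefore not read as a trait of all genes of the classes.

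**Figure D4:**
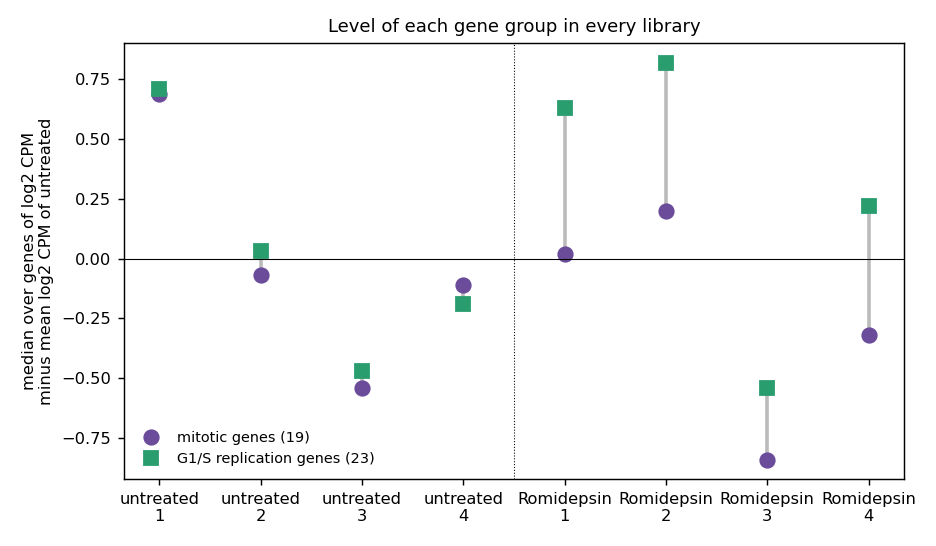
Median over genes of log2 CPM minus the mean log2 CPM of the untreated libraries (y axis) for the 19 mitotic genes (circles) and the 23 G1/S replication genes (squares) in each library (x axis), joined by a grey line. The classes nearly coincide in each untreated library, and in the treated ones the mitotic median is lower by 0.30 to 0.62.

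Within replicate numbers, the median log2 ratio of treated to untreated over mitotic genes was −0.61, 0.32, −0.19 and −0.28 for numbers 1 to 4. Over G1/S genes it was −0.10, 0.90, −0.01 and 0.29. The direction of each class thus varied between numbers, while the G1/S value was the higher in all 4. In number 1, where the untreated library was high in nearly all members, 16 of 19 mitotic genes were lower, and in number 2, 7 of 19.

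Ratios between pairs of members within a library also do not depend on scaling. They were chosen after the values were seen, so they carry no test, and since genes differ in length only their change between libraries is read. The ratio of Rrm2 to Rrm1 CPM, the subunits of 1 enzyme, was 0.552, 0.563, 0.419 and 0.419 in untreated and 0.177, 0.1503, 0.341 and 0.219 in treated libraries, with treated replicate 3 nearest the untreated range. The ratio of Ccne1 to Ccna2 was 0.414, 0.454, 0.425 and 0.237 in untreated and 1.996, 1.43, 1.64 and 2.04 in treated libraries, wide apart in every replicate number. The ratio of the licensing factor Cdt1 to its inhibitor Gmnn, which is no member, was 0.905, 1.12, 1.25 and 1.57 in untreated and 0.382, 0.416, 0.586 and 0.574 in treated libraries. The ratio of Mki67 to Top2a was 1.56, 1.51, 1.77 and 1.88 in untreated and 0.531, 0.442, 1.59 and 1.13 in treated libraries, so that treated replicate 3 fell among the untreated.

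**Figure D5:**
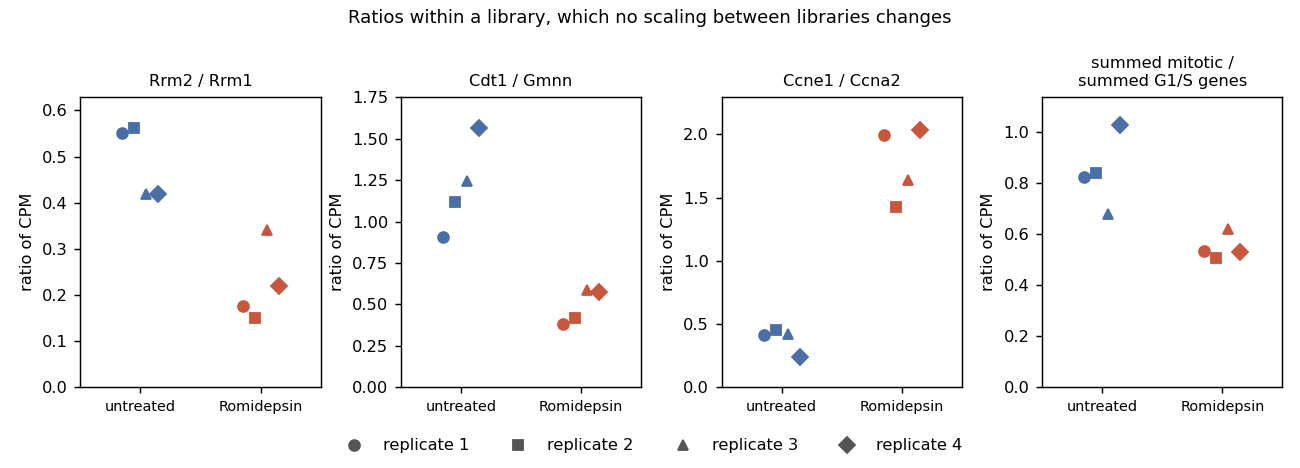
Ratio of CPM within each library (y axis, from 0) for Rrm2 to Rrm1, Cdt1 to Gmnn, Ccne1 to Ccna2 and the summed mitotic to the summed G1/S genes, in untreated and Romidepsin-treated libraries (x axis), with the marker shape giving the replicate number. The groups do not overlap in any of the 4 panels, and the ratio of Ccne1 to Ccna2 is 0.237 to 0.454 in untreated and 1.43 to 2.04 in treated libraries. The gene pairs were chosen after the values were seen. The ratio of Mki67 to Top2a, whose groups overlap, is not drawn. In the summed ratio Mki67 and Pcna weigh most in untreated libraries, and with both taken out its groups overlap.

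Per kilobase of the longest coding transcript, Pcna was the most abundant member in untreated cells at 86.5 CPM per kb, followed by Cdk2 at 23.4, Mcm3 at 22.8 and Top2a at 21.1. Against 11743 tested genes with a length, the mitotic genes stood at percentiles 14.9 to 70.8 (median 44.1) and the G1/S genes at 13.4 to 92.5 (median 53.7). RNA of both classes was thus present at middling levels in cells that the labels call senescent-like, and in bulk RNA fewer cells of a type and less RNA per cell cannot be told apart.

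The calls were also counted by promoter letters. Of the 12 mitotic genes with CHR letters 3 fell, with a median log2 fold change of −0.09, and of the 3 without none did, beside 16.2% of all tested genes, and with housekeeping scaling no mitotic gene fell. Of the 12 G1/S genes with E2F letters 1 fell and none rose, with a median of 0.24. Of the 7 without, 2 rose and 1 fell, and their median was 0.24 as well. With so few genes these counts lie near the background and are read no further.

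The other genes of the pathway, 101 tested, gave 11 that rose and 15 that fell, but 21 and 13 in the paired fit, 20 and 14 without treated replicate 3, and 48 and 3 with housekeeping scaling. Of all tested genes 20.3% rose and 16.2% fell, and in the paired fit 21.2% and 20.8%. Without treated replicate 3 these shares were 24.5% and 23.4%, and with housekeeping scaling 44.9% and 4.86%. Of 40 other G2/M genes 2 rose and 7 fell, with a median of 0.12, but 15 rose and none fell with housekeeping scaling. Nuf2, of the kinetochore, fell from 15.99 ± 5.09 to 6.36 ± 0.68 CPM (log2 fold change −1.33 ± 0.26, edgeR adjusted p = 0.00613). Tmpo, which encodes lamina-associated polypeptides, fell by 0.95 on the log2 scale and the insulator gene Ctcf by 1.24, while G2e3 and Cbx5, encoding the heterochromatin protein HP1α, rose (0.67 ± 0.18 and 0.76 ± 0.26). The 3 lower genes lost their call with housekeeping scaling. Cbx5 lost its call under 7 of 20 settings, 6 of them with a library left out (adjusted p up to 0.118), and G2e3 under 5, 4 of them with a library left out (up to 0.0645).

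Of 29 other S phase genes 5 rose and 1 fell, with a median of 0.47, beside 20.3% of all tested genes that rose and 16.2% that fell. In the paired fit 12 rose and without treated replicate 3, 11, beside 21.2% and 24.5% of all genes, and with housekeeping scaling 17 rose and none fell, beside 44.9% and 4.86%. Chaf1b, a subunit of the chromatin assembly factor that deposits histones behind the fork, held 23.4, 18.5, 15.9 and 11.2 CPM in untreated and 61.9, 66.1, 28.8 and 52.3 CPM in treated libraries (log2 fold change 1.6 ± 0.30, edgeR adjusted p = 0.00548). Blm, the Bloom helicase, rose by 1.48 ± 0.32 and Ubr7 by 0.96 ± 0.24, and all 3 calls stood under each of 20 other settings. Gmnn, named for its ratio above, rose by 0.92 ± 0.29 (edgeR adjusted p = 0.0345). Pold3, a subunit of the lagging-strand polymerase, fell by 0.58 on the log2 scale (edgeR adjusted p = 0.0149), but with housekeeping scaling its value was 0.12.

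Of 32 tested cell cycle regulators 4 rose and 7 fell, with a median of 0.01, but 16 rose and 3 fell with housekeeping scaling. Beside them, 20.3% of all tested genes rose and 16.2% fell, and with housekeeping scaling 44.9% and 4.86%. E2f2, an activating E2F, fell from 91.3 ± 23.1 to 27.2 ± 10.5 CPM (log2 fold change −1.75 ± 0.29, edgeR adjusted p = 0.0035), whereas E2f5, a repressive one that joins the DREAM complex, rose from 7.53 ± 0.87 to 18.1 ± 2.03 CPM (1.27 ± 0.19, edgeR adjusted p = 0.00224). Lin54, the DNA-binding subunit of MuvB that reads CHR letters, rose by 1.45 ± 0.31, and Rb1, the retinoblastoma gene, by 0.87 ± 0.22. Other genes of the retinoblastoma family and of DREAM differed in direction. Rbl2 fell by 0.49 on the log2 scale (edgeR adjusted p = 0.0411), but did not pass in the paired fit (0.0648), and with housekeeping scaling its value was 0.17. Lin9 (−0.55 ± 0.20), Lin52 (0.57 ± 0.23), Lin37 (−0.00 ± 0.17), Rbl1 (−0.06 ± 0.17) and E2f4 (0.14 ± 0.15) did not pass. The calls of E2f2, E2f5 and Lin54 stood under each of 20 other settings, and that of Rb1 was lost without untreated replicate 3 (0.0509).

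Foxm1, the mitotic transcription factor, held 17.7, 16.9, 9.21 and 13.8 CPM in untreated and 8.32, 10.2, 7.74 and 7.38 CPM in treated libraries. It fell by 0.78 on the log2 scale (edgeR adjusted p = 0.0376) and lost its call under 10 of 20 settings. Mybl2, encoding B-MYB, had −0.12 ± 0.41 and did not pass.

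Myc, the growth-promoting factor, held 34.1, 17.8, 6.25 and 8.03 CPM in untreated and 3.498, 4.51, 5.10 and 3.43 CPM in treated libraries, falling by 2.0 on the log2 scale (edgeR adjusted p = 0.0166). Ccnd1, the cyclin D1 gene, held 200.4, 29.2, 19.6 and 10.9 CPM in untreated and 4.70, 3.37, 7.94 and 6.34 CPM in treated libraries, with a log2 fold change of −3.54 ± 0.90 (edgeR adjusted p = 0.0165). The call was lost with limma-voom (−2.60, adjusted p = 0.0618) and with no count filter (0.0832). Most of the untreated mean of Ccnd1 comes from untreated replicate 1, without which the log2 fold change was −1.83 (adjusted p = 0.0145), yet all treated libraries lay below all untreated ones. For Myc the value without that library was −1.37. Ccnd3, the cyclin D3 gene, had −0.11 ± 0.23 and 0.62 with housekeeping scaling.

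The CDK inhibitor genes went different ways. Cdkn2b, encoding p15, rose from 0.597 ± 0.165 to 4.45 ± 3.63 CPM (log2 fold change 2.90 ± 0.70, edgeR adjusted p = 0.0132), with treated replicates 1 to 4 at 8.78, 6.03, 0.861 and 2.13 CPM. Cdkn1b, encoding p27, fell by 1.06 on the log2 scale (edgeR adjusted p = 0.0451), a call lost under 11 of 20 settings. Cdkn1a, encoding p21, had 282 ± 36.2 CPM in untreated and 338 ± 39.3 CPM in treated libraries, and did not pass (log2 fold change 0.26 ± 0.18, adjusted p = 0.268), but it passed as higher with library size alone (0.55, adjusted p = 0.0363) and with housekeeping scaling (0.95, adjusted p = 0.00417). Cdkn2a had too few counts to be tested. Among these other pathway genes Ctcf, Tmpo, Ubr7, Cdkn1a, Ccnd1, Ccnd3, Rb1, Rbl2, Lin37 and E2f5 share exonic bases with a gene on the opposite strand, and Foxm1 with 2 on its own.

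Markers of other cells that could bring cycle transcripts moved in part. Over 6 genes of granulocyte precursors, the dividing stage of that lineage, the summed level was 687 to 2013 CPM in untreated and 72.6 to 664 CPM in treated libraries, all 6 log2 fold changes were negative (median −1.64), and none passed, 1 doing so as lower in the paired fit. Of the B cell genes, Cd79b fell from 40.4 ± 25.1 to 4.72 ± 2.31 CPM (edgeR adjusted p = 0.00373), and Cd79a and Pax5 fell as well, although those 2 did not pass with housekeeping scaling. Ms4a1 did not pass (adjusted p = 0.0589), though it did as lower in the paired fit, and Ebf1, with a positive log2 fold change of 0.51, passed in neither fit. Of 5 tested stem and progenitor genes Meis1 rose, with sums of 16.4 to 41.8 and 17.7 to 35 CPM. Of 2 tested T and NK cell genes Cd3d fell, though not in the paired fit (sums 1.73 to 24.5 and 1.12 to 3.87 CPM), and of 5 mast cell and basophil genes Fcer1a fell (55.6 to 82.2 and 18.4 to 62.4 CPM).

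None of 5 tested mesenchymal genes passed (4.88 to 60.0 and 8.02 to 167 CPM) and neither of the 2 tested epithelial tumour genes (4.93 to 177 and 16.2 to 55.9 CPM). Cdh1 was 174 CPM in untreated replicate 1, against 4.74 to 5.62 CPM in the other untreated and 14.5 to 52.9 CPM in treated libraries. Epcam was 2.16 CPM in untreated replicate 1, against at most 0.164 CPM in the other untreated and 0.463 to 2.47 CPM in treated libraries. Untreated replicate 1 was also the highest untreated library for 40 members. Erythroid genes had sums under 0.99 CPM in every library, and none could be tested. No listed marker found in the table was at 0 in all libraries. The part of these cells in the levels of the members was not tested.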

How the data were processed

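RNA was sequenced from 4 untreated and 4 Romidepsin-treated libraries. The authors deposited raw counts per Ensembl gene. The RNA was poly(A)-selected per the labels' protocols. The tools were STAR 2.5.2a, FastQC and DESeq2 on GRCm38 (mm10), per the submitters' processing notes. Which counter, annotation release, strand setting and filters were used is not given in the sources used here.

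Groups were taken from the sample labels. Symbols matched 26881 of 26930 identifiers. The deposited counts were tested in edgeR 4.0.16 under R 4.3.3 (filterByExpr, TMM, robust two-sided quasi-likelihood test, Benjamini-Hochberg over 12852 genes, threshold 0.05), after the procedure was tested on simulated data. Libraries held 12996892 to 23176949 counts, so genes at a few CPM are imprecise. The SE is the log2 fold change divided by the square root of the F statistic. Alternatives were other scalings, filters, DESeq2 1.42.0, limma-voom (limma 3.58.1), pairing and leaving out libraries. The 20 genes of the housekeeping scaling themselves had a median log2 fold change of −0.29 with TMM, 3 rising and 4 falling, and that scaling moved the median of all genes by 0.69, library size alone by 0.30 and the absence of a filter by 0.13. Housekeeping scaling rests on the summed raw counts of the 20 genes in each library, so the most abundant of them weigh most.

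Same-numbered libraries deviated together from their group means, at correlations of 0.525, 0.270, 0.457 and 0.171, above the bound of 0.1, so the numbers were taken to pair them from the data, without a label that explains them.

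The members and lists were chosen with earlier results of these data known. Library values are given for up to 2 called members and the member of each role with the highest CPM. Of the other lists, up to 3 called genes per direction are named, with 9 regulators named where tested. Plk1, Aurkb, Kif23, Top2a, Pole and Fen1 are given more fully, and Gmnn, Rbl1, Rbl2, Lin9, Lin37, Lin52 and E2f4 are named, after their values were seen. A marker gene and the totals that hold it are not reported here.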

Additional observations from a re-analysis of the deposited data

Results flagged for a closer look

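Among 126 groups of 4 libraries, from 63 genes, 3 had a library whose gap to its neighbour exceeded Dixon's critical share of the group's range at 95%, where chance gives about 1 in 20. Aurkb was 22.32 CPM in treated replicate 4, against 16.5 to 17.4 CPM in the other treated libraries. Ccnd1 was 200.4 CPM in untreated replicate 1, against 10.9 to 29.2 CPM in the other untreated libraries, and without that replicate its call was kept. Pold3 was 25.3 CPM in treated replicate 4, against 32.0 to 33.0 CPM in the other treated libraries.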

How the results depend on the processing

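The replicate block, pairing libraries by number, kept all 8 calls among the members and gave 1 mitotic gene higher and 21 other pathway genes higher. Housekeeping scaling gave 5765 genes higher and 625 lower, 5 mitotic higher and 0 lower, 11 G1/S higher and 1 lower, 48 other pathway genes higher and 3 lower, with medians of 0.54 (mitotic) and 1.04 (G1/S). With the replicate block and housekeeping scaling together, chosen after seeing the data, these were 5929 and 1049, 5 and 0, 14 and 0, 54 and 2, and medians of 0.51 and 0.95. Ccnd3 was 0.62 with housekeeping scaling, paired or not, and Pold3 0.12 and 0.11. Library size alone gave 1368 genes lower, 1 mitotic gene higher and 2 lower, 4 G1/S genes higher, and 25 other pathway genes higher and 7 lower. DESeq2 and limma-voom each gave 1 mitotic gene higher, and limma-voom 1 G1/S gene lower, as did a minimum mean of 10 CPM, which removes Tk1 among others. Without both libraries of number 3, and without treated replicate 3 with pairing, both also chosen after seeing the data, 4 G1/S genes rose, and in the first 18 other pathway genes did. Leaving out each library in turn gave 1716 to 3146 genes higher and 1183 to 3010 lower, 0 to 1 mitotic genes higher and 2 to 5 lower, 1 to 5 G1/S genes higher and 1 to 2 lower, and 6 to 20 other pathway genes higher and 8 to 14 lower. The share of mitotic promoters with CHR letters was 33.3% over 150 bases before the start, and that of G1/S promoters with E2F letters 42.1%. The mitotic genes that lost CHR letters there were Ccnb2, Bub1, Bub1b, Aurka, Plk1, Cenpf and Kif23. Each had a match after the start, at positions 3 to 41, which this window leaves out. Ccnb2 and Bub1b also had a match upstream of it, at 167 and 188 bases before the start. Of the G1/S genes that lost E2F letters, Cdt1, Mcm3 and Lig1 had matches only after the start, and Rrm2 only 235 bases before it. The cause of the other shifts was not tested, except that the filter at 10 CPM leaves fewer genes.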
